A study of Rattus norvegicus with 12 samples.

Results

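Circadian clock genes were followed in the ventricles of rats after a temporary occlusion of a coronary artery. The members were 10 genes chosen by name: Bmal1, Clock, Per1, Per2, Nr1d1, Nr1d2, Bhlhe40 and Bhlhe41 of the clock loop, and the clock-driven genes Dbp and Usp2. All 10 were on the array, among 10411 genes in all, through 15 of its 15923 probe sets, and 14 of the 15 passed the filter on dim signals, among 10527 probe sets tested. Clock and Nr1d2 had 3 probe sets each, Usp2 had 2 and the other members had 1 each.

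Rats of the IR groups had the left anterior descending coronary artery closed for 30 min and then opened again (ischaemia followed by reperfusion), and the ventricle was collected after 7 or 2 days of reperfusion. Sham rats went without the occlusion. The 4 groups, 7 d IR, 7 d sham, 2 d IR and 2 d sham, held 3 rats each, with 1 array of total ventricular RNA per rat and 12 arrays in all. Strain, sex, age and the time of day of collection are not stated in these sources. The labels number the rats 44, 47 and 48 in the 7 d IR group, 80, 81 and 82 in the 7 d sham group, 69, 73 and 76 in the 2 d IR group, and 71, 72 and 74 in the 2 d sham group, and these numbers name the arrays below.

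In the mammalian clock, the transcription factors CLOCK and BMAL1 bind as a pair to E-box elements and switch on the Per and Cry genes, whose proteins later hold back the same pair. The pair also drives Nr1d1 and Nr1d2, which encode the REV-ERB repressors of Bmal1, and output regulators such as Dbp. In a running clock Bmal1 therefore peaks at the opposite time of day from Dbp and Nr1d1, with Per1 and Per2 peaking after Dbp and Nr1d1. Cardiac muscle cells carry such a clock, and it is known to time genes of fuel use and of ion channels. An array taken at another phase could thus have high Bmal1 beside low Dbp and Nr1d1, or the reverse, with the Per genes behind Dbp and Nr1d1.

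The stretch of 250 bases before the annotated start of each gene was searched in RefSeq sequence of the rat assembly GRCr8, where all 10 members had an entry. Shown are the 3 members that differed between groups in the tests below, and Per2, in which 2 elements were found. Sequences run 5′ to 3′ on the gene's strand, and capitals mark the elements named on each line.
Usp2, chr8:53310620-53310869, plus strand, AGGTCA: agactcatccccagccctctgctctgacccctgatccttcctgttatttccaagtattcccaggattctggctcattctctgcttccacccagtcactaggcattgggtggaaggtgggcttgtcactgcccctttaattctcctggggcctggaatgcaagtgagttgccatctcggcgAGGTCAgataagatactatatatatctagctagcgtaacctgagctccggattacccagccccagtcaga
Bhlhe41, chr4:180569356-180569605, minus strand, CACGTG: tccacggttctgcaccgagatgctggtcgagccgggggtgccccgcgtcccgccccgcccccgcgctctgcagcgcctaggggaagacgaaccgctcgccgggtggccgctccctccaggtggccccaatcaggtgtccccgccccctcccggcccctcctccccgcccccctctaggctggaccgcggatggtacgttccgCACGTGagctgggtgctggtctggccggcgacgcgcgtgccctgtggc
Bmal1, chr1:176766078-176766327, plus strand, AGGTCA: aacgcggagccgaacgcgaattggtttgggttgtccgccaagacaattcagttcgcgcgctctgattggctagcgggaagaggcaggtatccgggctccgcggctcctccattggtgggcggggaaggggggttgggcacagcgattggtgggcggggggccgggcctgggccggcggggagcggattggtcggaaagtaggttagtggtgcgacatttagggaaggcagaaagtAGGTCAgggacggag
Per2, chr9:99496994-99497243, minus strand, TTATGTAA then CACGTT: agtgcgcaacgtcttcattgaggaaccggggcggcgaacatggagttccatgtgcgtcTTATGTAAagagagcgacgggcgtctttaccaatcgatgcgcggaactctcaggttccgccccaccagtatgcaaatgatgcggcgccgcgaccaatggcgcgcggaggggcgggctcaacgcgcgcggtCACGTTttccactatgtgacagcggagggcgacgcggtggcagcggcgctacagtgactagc

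The elements searched, on both strands, were CACGTG (the E-box of CLOCK and BMAL1), CACGTT (a weaker variant of it), TTATGTAA (a D-box, bound by DBP), AGGTCA (a core letter run read by ROR and REV-ERB receptors among others) and TGACGTCA (bound by CREB). No searched element overlaps another in the 4 sequences. CACGTG stood 48 to 43 bases before the start of Bhlhe41, and it was also found in Bhlhe40 and in 1 of 2 Nr1d1 entries, against 5.59% of 33469 rat entries. AGGTCA stood 70 to 65 bases before the start of Usp2 and 15 to 10 bases before that of Bmal1, and was also found in Nr1d2, against 14.1% of all entries. CACGTT was found in Per2, 62 to 57 bases before the start, and in the other Nr1d1 entry, against 4.07% of entries. TTATGTAA was found in Per2 alone among the members, against 0.828% of entries, and TGACGTCA in 0 of the 10 members, against 1.59%. These matches describe letters in a short window and not binding.

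Values are MAS5 signals, which give the brightness of a probe set on a linear scale. With the outer 2% trimmed at either end, array means lay at a common level, 1500.4 to 1500.5. Changes were estimated on log2(signal + 195) with limma over all 10527 probe sets, which understates the change of dim genes, and an adjusted p under 0.05 was called. A signal of 447.9 to 514.8 was the 40th percentile of an array. Where a gene had several probe sets, the brightest stands for it in counts.

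On the first principal component, with 39.0% of the variance, 2 arrays lay far from the others of their groups. 2 d IR rat 69 lay at 18.29 there, against -4.11 and 0.18 for rats 73 and 76, and 7 d sham rat 82 lay at -23.61, against -1.06 and -1.14 for rats 80 and 81. Calls of members are given with and without these arrays, and calls of other genes where leaving them out ends the call. Calls of cell type markers were not followed without these arrays. Of all 10527 probe sets, 2 were called between IR and sham at 2 d without rat 69. Without rat 82, 175 were called between IR and sham at 7 d. The 5 cardiomyocyte markers Myh6, Tnnt2, Tnni3, Actn2 and Ryr2 were well measured on every array, with a lowest signal of 1104.

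**Figure D1:**
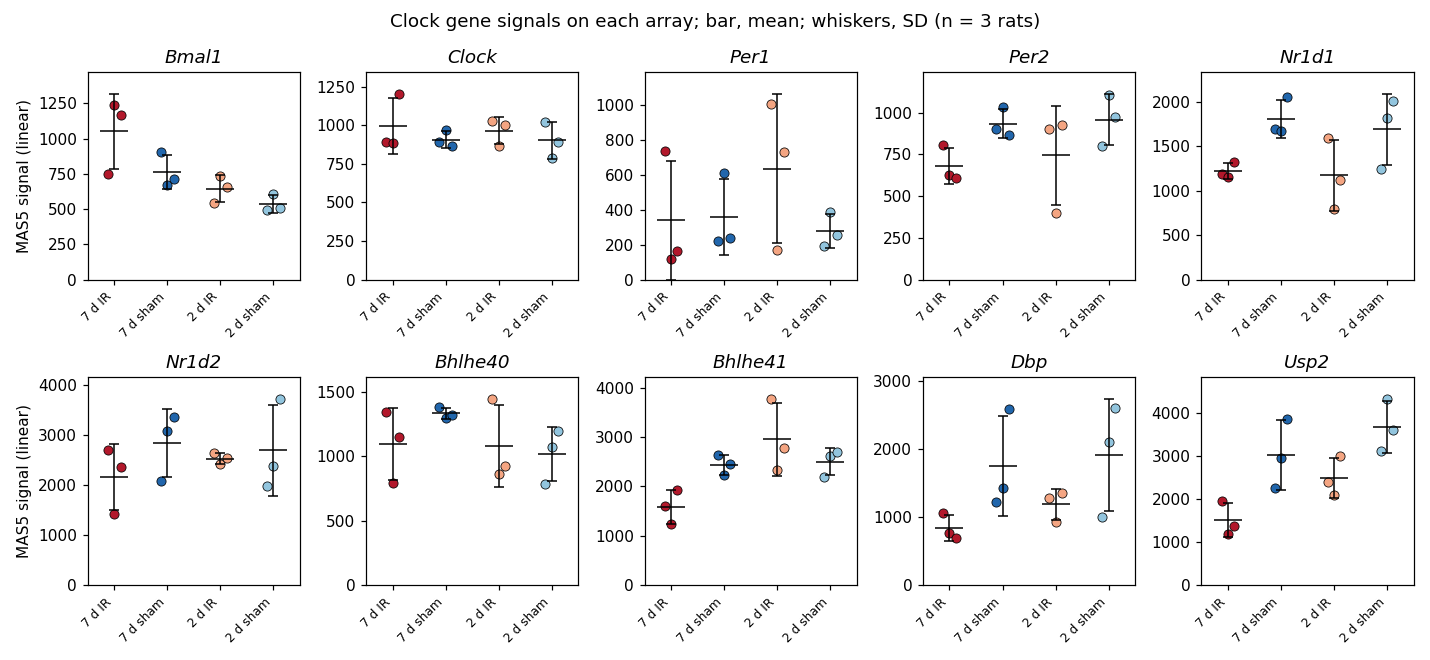
MAS5 signal (linear, y axis) of the 10 clock genes on each array (points), by group along the x axis, with the mean (bar) and SD (whiskers) of 3 rats; a gene with several probe sets is shown by its brightest. The 7 d IR points of Usp2 and Bhlhe41 lie below every 7 d sham point, and Per1 lies between 119 and 1008.

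Setting IR against sham hearts at 7 d asks whether clock genes differed after a week of healing, and Usp2 and Bhlhe41 fell. Usp2 encodes a deubiquitinating enzyme whose transcript cycles with the clock in many tissues. Its brighter probe set read 1953, 1188 and 1383 in 7 d IR hearts, against 2262, 2953 and 3878 in 7 d sham hearts. The groups did not overlap, with IR rat 44 nearest to the sham hearts and sham rat 82 farthest from the IR hearts. The log2 change was -0.92 (SE 0.20, adjusted p = 0.0135), or 1.89-fold lower in IR. The other Usp2 probe set read 1016, 907 and 1061 in 7 d IR hearts, against 1925, 1265 and 2041 in 7 d sham hearts, again without overlap, with a log2 change of -0.68 (SE 0.17, adjusted p = 0.0222). Without 2 d IR rat 69 and sham rat 82, the arrays that stood apart, adjusted p was 0.0641 and 0.078. Without sham rat 82 alone the changes were -0.73 and -0.57 and neither passed (adjusted p = 0.0728 and 0.109), and without IR rat 47 they were -0.78 and -0.63 (adjusted p = 0.0576 and 0.0743). The second probe set did not pass either without IR rat 44 or without sham rat 80 (adjusted p = 0.0613 and 0.0612).

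Bhlhe41 encodes a basic helix-loop-helix repressor that competes with CLOCK and BMAL1 at E-boxes. It read 1592, 1239 and 1923 in 7 d IR hearts, against 2629, 2222 and 2458 in 7 d sham hearts. All 3 IR hearts lay below all 3 sham hearts. The log2 change was -0.58 (SE 0.17, adjusted p = 0.0439), or 1.49-fold lower in IR. This call lies close to the threshold, and it was lost in 8 of the 12 fits that each left out an array, with adjusted p = 0.129 without sham rat 82 and 0.165 without IR rat 47, and it was 0.0718 without rats 69 and 82 together. Bhlhe40, the related repressor, read 1344, 790 and 1152 in 7 d IR hearts, against 1382, 1297 and 1320 in 7 d sham hearts. The groups overlapped through IR rat 44, and the change did not pass (-0.27, SE 0.20, adjusted p = 0.405).

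Dbp and Nr1d1 lay lower in all 7 d IR hearts than in all 7 d sham hearts, but did not pass. Dbp encodes a transcription factor of the PAR bZIP family that carries the clock's signal to metabolic genes. It read 1052, 769 and 696 in 7 d IR hearts, against 1219, 1431 and 2586 in 7 d sham hearts, and the spread in sham came from rat 82. Its log2 change was -0.86 (SE 0.29, adjusted p = 0.0681), and without sham rat 82 the change was -0.57 (adjusted p = 0.277). With each array left out in turn it ran from -1.06 to -0.57 and passed in 2 of 12 fits, those without sham rat 80 or 2 d sham rat 71 (adjusted p = 0.0455 and 0.0321). Nr1d1 encodes REV-ERB alpha. It read 1186, 1154 and 1327 in 7 d IR hearts, against 1692, 1667 and 2056 in 7 d sham hearts. The log2 change was -0.49 (SE 0.20, adjusted p = 0.121), and in a fit of these 2 groups alone it passed (adjusted p = 0.0484). Nr1d2, which encodes REV-ERB beta, did not pass on its 2 tested probe sets (-0.39 and -0.23, adjusted p = 0.313 and 0.306), and its other probe set, with signals of 78.4 to 324.3, was too dim to test.

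Among the Per genes, which encode the repressors of the loop, Per2 read 805, 625 and 611 in 7 d IR hearts, against 905, 1032 and 868 in 7 d sham hearts. The groups did not overlap and the change of -0.37 (SE 0.21, adjusted p = 0.274) did not pass. Per1 read 735, 119 and 165 in 7 d IR hearts, against 224, 613 and 240 in 7 d sham hearts. Both groups held 1 high and 2 low arrays, and the change was -0.16 (SE 0.46, adjusted p = 0.85). On the positive side of the loop, Bmal1 read 749, 1239 and 1163 in 7 d IR hearts, against 903, 673 and 712 in 7 d sham hearts. IR rats 47 and 48 lay above all sham hearts and rat 44 lay among them, with a change of 0.36 (SE 0.18, adjusted p = 0.199). Clock, the partner of Bmal1, had log2 changes of 0.10, -0.07 and -0.35 on its 3 probe sets, none past the threshold (adjusted p = 0.699, 0.839 and 0.414).

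In all, 2 of the 10 members were called at 7 d and both were lower, against 12.1% of all probe sets called and 5.85% called lower. The IR and sham arrays did not overlap for 5 members, all lower in IR, where 32.4% of all probe sets did not overlap and 15.8% did so with IR lower. The median log2 change was -0.38 over the 10 members and 0.01 over all probe sets, and 8 of the 10 lay below 0, against 49.2% of all probe sets. Unadjusted p-values were under 0.05 for 4 members, against 28% of all probe sets. The cell content of the tissue moved with this comparison. Of 5 cardiomyocyte markers 4 fell, and their summed signal was 144457 to 151043 in 7 d IR hearts, against 194640 to 241889 in 7 d sham hearts. Of 8 macrophage markers 5 rose (sums 38272 to 52894 in IR, against 16295 to 30046 in sham), and of 5 fibroblast markers 4 rose (sums 173548 to 234626 in IR, against 78974 to 139973 in sham). None of these markers was listed at 0, and their part in the clock gene values was not tested. In bulk tissue fewer cells of a type and less RNA per cell cannot be told apart. RNA integrity, read as Actb signal at the 3′ end relative to the 5′ end in log2 units, was 0.18 ± 0.06 for 7 d IR hearts, against 0.58 ± 0.23 for 7 d sham hearts (SD, n = 3). The same measure on Gapdh was 0.32 ± 0.05 for 7 d IR hearts, against 0.39 ± 0.07 for 7 d sham hearts, and the part of RNA integrity was not tested.

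**Figure D2:**
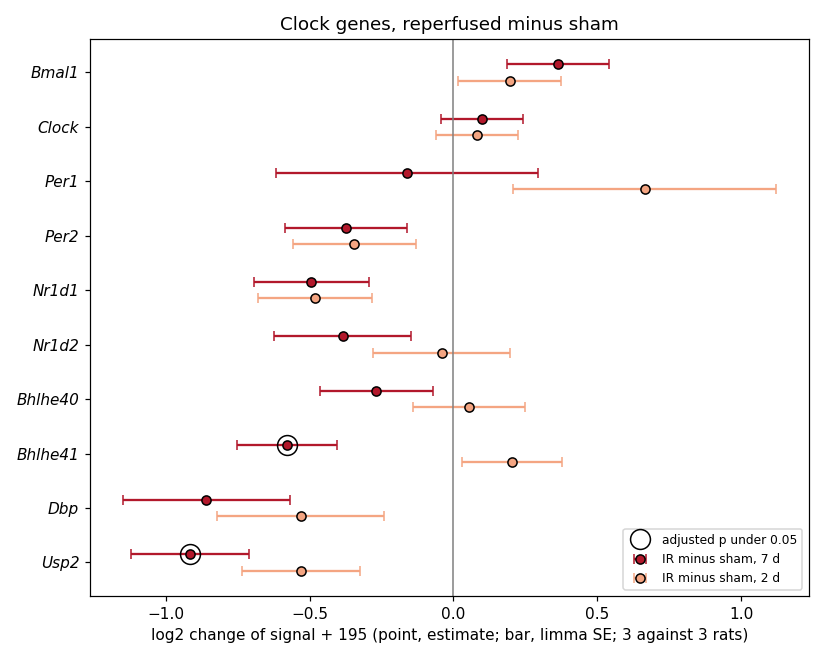
Log2 change of signal + 195 (x axis) in IR minus sham hearts for the 10 clock genes (y axis), at 7 d (dark red) and at 2 d (orange), 3 against 3 rats each; points are limma estimates, bars their SE and rings mark an adjusted p under 0.05. The ringed points are Usp2 at -0.92 and Bhlhe41 at -0.58, both at 7 d, and Dbp lies at -0.86 with a wider bar.

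At 2 d, the same comparison was put to the early hearts. Usp2 was again lower, and its 2 probe sets disagreed on the call. The dimmer probe set read 1013, 1336 and 1367 in 2 d IR hearts, against 1946, 1927 and 2548 in 2 d sham hearts, and it passed (-0.70, SE 0.17, adjusted p = 0.0453, 1.63-fold lower). The brighter probe set read 2389, 2088 and 3010 in 2 d IR hearts, against 3114, 4325 and 3610 in 2 d sham hearts, and it did not pass (-0.53, SE 0.20, adjusted p = 0.154). On both probe sets every IR heart lay below every sham heart. The call of the dimmer probe set was lost in 9 of the 12 fits that each left out an array, with -0.58 and adjusted p = 0.237 without IR rat 69 (0.15 without rats 69 and 82).

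No member that stood for its gene passed at 2 d in limma, against 2.47% of all probe sets called and 0.589% called lower. Unadjusted p-values were under 0.05 for 2 members, against 21.5% of all probe sets. The arrays of IR and sham did not overlap for 1 member, Usp2, where 26.4% of all probe sets did not overlap and 12.5% did so with IR lower. Of the 10 members 5 lay below 0, against 49.6% of all probe sets. The median log2 change of the members was 0.01, and that of all probe sets 0.003. Nr1d1 read 1596, 796 and 1125 in 2 d IR hearts, against 1245, 1812 and 2010 in 2 d sham hearts. The groups overlapped and the change was -0.48 (SE 0.20, adjusted p = 0.179). It was -0.27 without IR rat 73 and -0.70 without IR rat 69. Dbp read 1277, 930 and 1348 in 2 d IR hearts, against 999, 2107 and 2610 in 2 d sham hearts. Sham rat 71 lay among the IR hearts, and the change was -0.53 (SE 0.29, adjusted p = 0.311), with -0.89 without sham rat 71 and -0.28 without sham rat 74. Per2 read 901, 402 and 929 in 2 d IR hearts, against 798, 1103 and 973 in 2 d sham hearts (-0.34, SE 0.21, adjusted p = 0.377), and without IR rat 73, the low value, the change was -0.05.

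Per1 was the member with the widest spread. It read 1008, 170 and 731 in 2 d IR hearts, against 194, 388 and 255 in 2 d sham hearts, so that 2 IR hearts lay above and 1 below all sham hearts. The change of 0.66 (SE 0.46) did not pass (adjusted p = 0.43), and it was 0.31 without IR rat 69 and 1.18 without IR rat 73. Bmal1 read 545, 733 and 654 in 2 d IR hearts, against 496, 608 and 506 in 2 d sham hearts, with overlap and a change of 0.20 (SE 0.18, adjusted p = 0.574). Bhlhe41 read 3766, 2328 and 2771 in 2 d IR hearts, against 2188, 2620 and 2695 in 2 d sham hearts. Its change of 0.20 (SE 0.17, adjusted p = 0.545) had the opposite sign to that of 7 d, and it was 0.03 without IR rat 69, which had the highest value. Bhlhe40, Clock and Nr1d2 changed by 0.05, 0.08 and -0.04 and did not pass. At 2 d, 1 of 5 cardiomyocyte markers fell (sums 150933 to 205816 in IR, against 214020 to 249333 in sham). A second, dimmer Myh6 probe set also fell (-0.92, adjusted p = 0.0431), while the brighter did not pass (-0.41, adjusted p = 0.188). Of 8 macrophage markers 5 rose (sums 35393 to 62527 in IR, against 15748 to 21942 in sham). Of 5 fibroblast markers 0 passed, though 4 were higher in every IR heart, where 26.4% of all probe sets did not overlap. Fibroblast sums were 77079 to 91505 in IR, against 62403 to 73916 in sham. The marker calls were not followed without IR rat 69, and the part of the markers in the Usp2 value was not tested.

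The days were then compared within each surgery. In IR rats Bhlhe41 was lower at 7 d than at 2 d, the signals given above not overlapping between the 2 groups (-0.82, SE 0.17, adjusted p = 0.0173, 1.76-fold lower at 7 d). Without 2 d IR rat 69 the change was -0.64 and did not pass (adjusted p = 0.0535, or 0.0508 without rats 69 and 82), nor did it without 7 d IR rat 47 (-0.67, adjusted p = 0.0868) or in a fit of the 2 groups alone (adjusted p = 0.0525). Bmal1 was higher in every 7 d IR heart than in every 2 d IR heart, with a change of 0.55 (SE 0.18, adjusted p = 0.111). That change passed only when 7 d IR rat 44 was left out (0.74, adjusted p = 0.0417), of the 21 alternatives run. Usp2 lay lower in every 7 d IR heart (-0.67, SE 0.20, adjusted p = 0.0916). This made 1 of 10 members called, against 3.45% of all probe sets (0.997% called lower), and 3 with an unadjusted p under 0.05, against 16.4%. Groups did not overlap for 3 members, 2 of them lower, against 20.5% of all probe sets and 9.91% lower. Markers moved with this comparison. All 5 fibroblast markers and 2 of 8 macrophage markers (C1qa, 1.62, and C1qb, 1.26) rose, 0 of either list fell, and Lgals3, another macrophage marker, had -0.83 without passing (adjusted p = 0.0846). All 5 cardiomyocyte markers lay lower at 7 d (median -0.37) and 0 were called. A second Myh6 probe set was higher, at 0.82, without passing (adjusted p = 0.0554). The part of these markers in the Bhlhe41 value was not tested.

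In sham rats 0 of the 10 members were called between the days, against 0.076% of all probe sets (8 of 10527), and 1 member, Bmal1, had an unadjusted p under 0.05, against 9.42%. Bmal1 was higher in all 7 d sham hearts than in all 2 d sham hearts, with a change of 0.38 that did not pass (SE 0.18, adjusted p = 0.525). Bhlhe40 was the other member without overlap, where 14.3% of all probe sets did not overlap. Of 5 fibroblast markers 0 were called between the sham groups and 0 lay lower at 7 d (median 1.07). The 8 macrophage markers had a median of 0.45 and the 5 cardiomyocyte markers -0.15, with 0 called. The Actb 3′ to 5′ measure was 0.58 ± 0.23 in 7 d sham and 0.20 ± 0.10 in 2 d sham hearts (SD, n = 3). On Gapdh it was 0.39 ± 0.07 and 0.27 ± 0.06. The part of these in the Bmal1 value was not tested. The difference between the IR effects of the 2 days was called for 0 members and 0.0095% of all probe sets (1 of 10527). For Bhlhe41 this difference was -0.78 (SE 0.25, unadjusted p = 0.00634, adjusted p = 0.542), so that its opposite signs at 7 d and 2 d were not shown to differ after adjustment, and it was the only member with an unadjusted p under 0.05, against 7.14% of all probe sets.

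A moderated F test asked whether a member differed among the 4 groups in any way. It called 3 of the 10 members, against 18.2% of all probe sets: Usp2 (adjusted p = 0.00628), Bhlhe41 (adjusted p = 0.0196) and Bmal1 (adjusted p = 0.0365). The Bmal1 means were 1050 ± 264 for 7 d IR, 763 ± 123 for 7 d sham, 644 ± 94.3 for 2 d IR and 536 ± 61.9 for 2 d sham (SD, n = 3). Its call was lost in 10 of 20 alternative fits and in 6 of the 12 that each left out an array, among them without 7 d IR rat 47 or 48 (adjusted p = 0.142 and 0.127), after median centring of the arrays (adjusted p = 0.0663) and without 2 d IR rat 69 and 7 d sham rat 82 (adjusted p = 0.0521). The call of Bhlhe41 was lost without 7 d IR rat 44 or 47 (adjusted p = 0.0626 and 0.102). The Usp2 means were 1508 ± 397 for 7 d IR, 3031 ± 811 for 7 d sham, 2495 ± 470 for 2 d IR and 3683 ± 609 for 2 d sham (SD, n = 3), an order opposite to that of Bmal1 except that 7 d sham and 2 d IR lay the other way round. The call of Usp2 held in all 20 alternative fits of this test.

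Whether arrays of 1 group differed among themselves was read from each array's deviation from the gene's own mean over the 12 arrays, in log2 units. The 8 members Per1, Per2, Nr1d1, Nr1d2, Bhlhe40, Bhlhe41, Dbp and Usp2, which CLOCK and BMAL1 are known to drive, were averaged for description. On 7 d IR rat 47 all 8 lay below their own mean (average -0.61) and on rat 48 all but Bhlhe40, which stood at 0.045, lay below it (average -0.35). Bmal1 stood at 0.64 and 0.56 on these arrays, its 2 highest values. On 7 d IR rat 44 the average was -0.02, with 5 of the 8 below their mean, and Bmal1 stood at 0.04. Usp2, Bhlhe41, Dbp, Nr1d1 and Per2 stood at -0.34, -0.48, -0.27, -0.23 and -0.005 there. Nr1d2 and Bhlhe40 stood at 0.11 and 0.24, and Per1 at 0.78, against -0.79 and -0.59 on rats 47 and 48. The 7 d IR hearts were thus all low in Usp2, Bhlhe41, Dbp and Nr1d1, and not alike in Per1 and Bmal1. Among the 2 d IR hearts, rat 73 had 7 of the 8 below their mean (average -0.38), with Per2 at -0.75 and Nr1d1 at -0.71, and Bmal1 at 0.02. Rats 69 and 76 averaged 0.30 and 0.12.

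The sham hearts also differed among themselves. 2 d sham rat 71 had 7 of the 8 below their mean (average -0.19) while rats 72 and 74 averaged 0.28 and 0.33, and Dbp stood at -0.33 on rat 71 against 0.61 and 0.90 on the others. On that array Bmal1 was not high, at -0.41, the lowest of the 12. Among the 7 d sham hearts, rat 80 averaged -0.0052 with Bmal1 at 0.26, and rats 81 and 82 averaged 0.23 and 0.30 with Bmal1 at -0.08 and -0.02. High Bmal1 thus went with a low average on 7 d IR rats 47 and 48, and low Bmal1 with a high average on 2 d sham rats 72 and 74 and on 2 d IR rat 69. Against this, 2 d IR rat 73 had an average of -0.38 with Bmal1 near its mean, and 2 d sham rat 71 was low in both. The high average of 2 d IR rat 69 came mostly from Per1 (1.15) and Bhlhe41 (0.67). Dbp (-0.03) and Usp2 (-0.07) were the 2 of the 8 below their mean on that array, and Nr1d1 stood at 0.14.

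**Figure D3:**
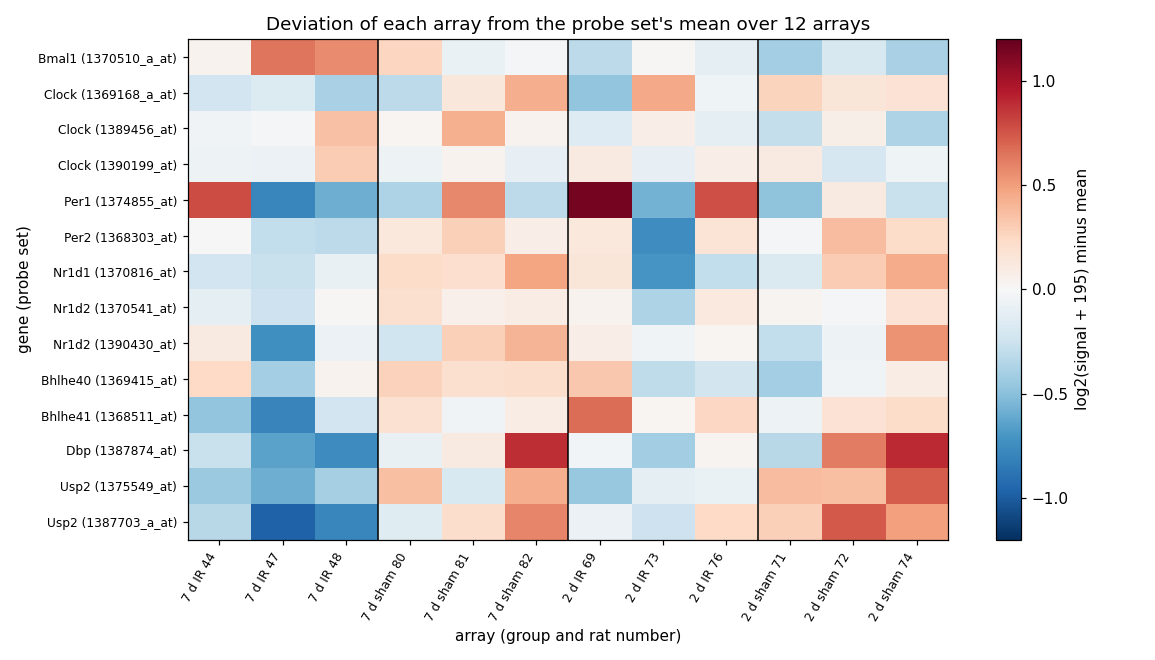
Deviation of log2(signal + 195) from the probe set's mean over 12 arrays (colour; red above, blue below) for the 14 tested clock probe sets (rows) on each array (columns, by group and rat number). On 7 d IR rats 47 and 48 Bmal1 is red (0.64 and 0.56) and Usp2 and Dbp are blue, while Per1 changes sign between rats of the same group.

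The spread between rats of 1 group differed from member to member. Per1 had a within-group SD of 0.69 log2 units, at the 99.4th percentile of the probe sets tested, whose median SD was 0.20. Its signals of 119 to 1008 reach below the 40th percentile of the arrays. Dbp had an SD of 0.45, at the 94.9th percentile, and the brightest Nr1d2 probe set 0.36, at the 89.0th. Usp2 (0.30), Per2 (0.29), Nr1d1 (0.28) and Bhlhe40 (0.27) lay between the 74.6th and the 80.3rd percentile. Bhlhe41 had 0.24 and Bmal1 0.21, near the median, and the brightest Clock probe set had 0.15, at the 21.7th percentile.

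Bmal1 was set against each of the 9 other members over the 12 arrays, among them Dbp and Nr1d1 as genes of opposite phase. Usp2 gave Pearson r = -0.81 (permutation p = 0.0017, adjusted p = 0.0153) and Spearman rho = -0.77 (permutation p = 0.00476, adjusted p = 0.0428). The permutations shuffled arrays without regard to group, so these p-values cannot separate group differences from a relation between rats of 1 group. The other 8 did not pass adjustment over the 9 relations. For Bhlhe41 r was -0.67 and rho -0.56 (permutation p = 0.0184 and 0.0623, adjusted p = 0.0827 and 0.187), and for Dbp r was -0.60 and rho -0.58 (permutation p = 0.0398 and 0.0521, adjusted p = 0.119 and 0.187). Without the 2 arrays farthest from the median of Bmal1, which were 7 d IR rats 47 and 48, r was -0.47 for Usp2, -0.32 for Bhlhe41 and -0.24 for Dbp, and 0 of 9 passed, so that the relation with Usp2 rests on those arrays. With the group means removed, r was -0.56 for Usp2, -0.23 for Bhlhe41 and -0.33 for Dbp. It was -0.76 for Per1 and -0.61 for Nr1d2, whose values over the 12 arrays were -0.46 and -0.56 (permutation p = 0.136 and 0.0598). Clock, at 0.16, was near 0 over the 12 arrays and had -0.09 with group means removed.

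**Figure D4:**
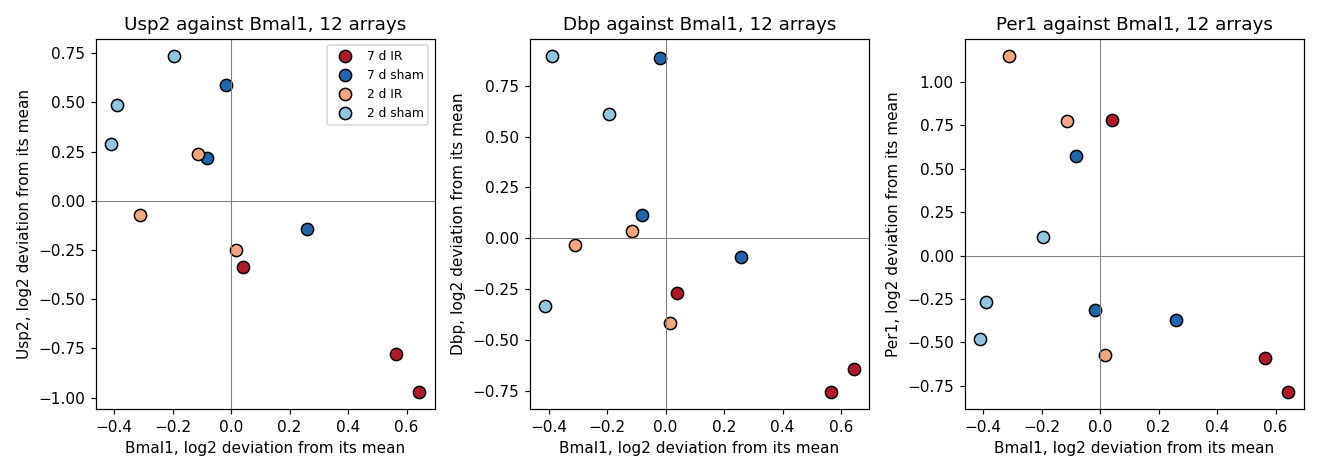
Log2 deviation of Usp2, Dbp and Per1 (y axes) against that of Bmal1 (x axes), each from the gene's own mean, on 12 arrays coloured by group. The 2 points farthest right are 7 d IR rats 47 and 48, with Bmal1 at 0.64 and 0.56, and they carry much of the slope: r for Usp2 is -0.81 with them and -0.47 without.

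The genes whose log2 signals were most like those of Bmal1 and Dbp over the 12 arrays were listed as a description. For Bmal1 they were Eln (r = 0.95), Elf1 (0.91), Dpt (0.90), Slc39a10 (0.89) and Fndc1 (0.89). Eln encodes elastin and Dpt the matrix protein dermatopontin. With group means removed these r were 0.65 to 0.89. For Dbp they were Cdpf1 (0.91), Mrps35 (0.90), Ampd1 (0.88), Pold2 (0.88) and Socs6 (0.87), with 0.76 to 0.84 after removal of group means. No clock gene was among these 10, which share the arrays and their scaling with the genes they were matched to. The ranking ran from the highest r down, so a gene with a negative r could not enter it. The r of Usp2 with Bmal1, at -0.81, was of that kind, and the absence of clock genes thus says little for Bmal1.

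Of 22 further clock genes listed, 14 were on the array and 10 were tested. At 7 d 1 was called, lower in IR, against 12.1% of all probe sets called and 5.85% called lower. This was Prkaa2, a catalytic subunit of the AMP-activated kinase that marks cryptochromes for breakdown, with 3718, 1588 and 4146 in 7 d IR hearts, against 5284, 5183 and 7020 in 7 d sham hearts (-0.94, SE 0.29, adjusted p = 0.0499). The call was lost in 8 of the 12 fits that each left out an array, with -0.80 without sham rat 82 (adjusted p = 0.183) and -0.53 without IR rat 47 (adjusted p = 0.184). The median change of the 10 was 0.10 at 7 d and -0.01 at 2 d, when 0 were called. Hlf, a PAR bZIP factor like Dbp, read 323, 393 and 268 in 7 d IR hearts, against 448, 397 and 531 in 7 d sham hearts, and 313, 364 and 328 in 2 d IR hearts, against 457, 729 and 457 in 2 d sham hearts. Its IR hearts lay below its sham hearts on both days, without passing (-0.32 and -0.47, adjusted p = 0.319 and 0.197). Cry2, a repressor of the loop, and Nfil3, which competes with DBP at D-boxes, did not pass at 7 d (-0.27 and 0.38, adjusted p = 0.354 and 0.267). The casein kinase gene Csnk1d, whose product marks PER proteins, had 4 probe sets with changes of -0.46 to 0.45 at 7 d and 0 of 4 past the threshold. Csnk1e, Btrc, Nono, Wdr5 and Nampt did not pass on either day, with changes of 0.08 to 0.41 at 7 d and -0.11 to 0.31 at 2 d. Per3, Rorb, Tef and Timeless were too dim to test.

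Of 29 genes known as clock outputs, 23 were tested. At 7 d 4 fell and 0 rose, where 5.85% of all probe sets were called lower and 12.1% called at all. Among them were Pnpla2, the triglyceride lipase of muscle and fat (-0.72, SE 0.14, adjusted p = 0.00946), and Gys1, the muscle glycogen synthase (-0.69, SE 0.16, adjusted p = 0.0142). The potassium channel genes Kcnk3 (-0.94, SE 0.18, adjusted p = 0.0084) and Kcnip2, a channel subunit (-0.63, SE 0.19, adjusted p = 0.0424), were the others. The call of Kcnip2 held in only 3 of the 12 fits that each left out an array. It was also lost without 2 d IR rat 69 and sham rat 82 together (-0.53, adjusted p = 0.0645). Those of Gys1 and Pnpla2 were lost without sham rat 82 alone (-0.57 and -0.60, adjusted p = 0.0766 and 0.051). None of the further probe sets of these channel genes passed, at -0.24 and -0.35 for Kcnk3 and -0.30 for Kcnip2. The median of the 23 was -0.13. At 2 d 1 rose, Rbm3, a cold-induced RNA-binding protein (0.94, SE 0.18, adjusted p = 0.0213), and 0 fell, against 2.47% of all probe sets called. Without IR rat 69 Rbm3 did not pass (0.75, adjusted p = 0.119). Between days in IR rats 2 fell, against 0.997% of all probe sets called lower. These were Pnpla2 (-0.91, SE 0.14, adjusted p = 0.00235) and Por, the electron donor of cytochrome P450 enzymes (-0.62, SE 0.15, adjusted p = 0.0373), of which another probe set gave 0.06 and did not pass. The call of Por held in 5 of the 12 fits that each left out an array. In sham rats and for the difference between the IR effects 0 of the 23 and 0 of the 10 further clock genes were called.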

How the data were processed

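Per the submitters' processing notes the deposited values come from MAS5, and each is a linear intensity for a probe set. The MAS5 settings are not stated in these sources. With the outer 2% of probe sets trimmed at either end, array means were 1500.4 to 1500.5, a common level. Array medians were 637.3 to 719.0, and the number of arrays limits the precision. No 2 arrays were identical. Groups came from sample titles, since the series text names the 2 d sham group nowhere. Nothing in the labels gives batches.

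Signals were taken as log2(signal + 195), 195 being the median over arrays of the 20th percentile. Without 57 control probe sets 15866 were left, of which 10527 exceeded the 40th percentile of the array on 3 or more arrays and were tested. Genes were named from probe sets with 1 symbol in GEO's platform annotation. The fit, with a mean per group over 12 arrays, used R 4.3.3 and limma 3.58.1 (eBayes with an intensity trend) and was checked on simulated data. Tests were two-sided with Benjamini-Hochberg adjustment over 10527 probe sets and a threshold of 0.05. Correlations used 100000 resamples over all arrays, without regard to group.

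The members, gene lists and tests were chosen with earlier results of these data known. Named were all members, further clock genes, called genes of the output, glucocorticoid and immediate early lists (at most 6 per comparison), and the 5 genes most like Bmal1 and Dbp. Alternatives covered the offset, scaling, dim filter, trend, probe sets, samples in the fit and leaving out arrays. Promoter letters are RefSeq's (GRCr8).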

Additional observations from a re-analysis of the deposited data

How the results depend on the processing

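No paired analysis was possible because the groups share no replicate numbers. The inclusion of Bhlhe40 in the array averages and the fits without arrays for genes that are not members were chosen after seeing the data. Without Bhlhe40 the averages on 7 d IR rats 47 and 48 were -0.64 and -0.41, with 7 of 7 genes below their mean on both. The count of members called at 2 d (0) was 1, Usp2, with the mean over the probe sets of a gene, and 0 in every fit without an array. The count at 7 d (2) was 0 to 3 with an array left out, 0 without 2 d IR rat 69 and 7 d sham rat 82 together, a pair chosen after seeing the data, and 1 (Usp2) without the filter on dim probe sets or without the intensity trend. Between days in IR rats the count (1) was 0 to 2 with an array left out, 0 in a fit of the 2 groups alone and 0 without rats 69 and 82. The count of the F test (3) was 1 to 4 with an array left out. The counts of 0 for days in sham rats and for the difference of IR effects were 0 under every alternative run. The 1 relation of Bmal1 that passed was lost without the 2 extreme arrays and after median centring (0 of 9 in both).

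Signs turned for changes near 0 that were not called. Bhlhe40 at 2 d had -0.0052 after median centring, -0.016 after quantile normalization, -0.14 without rats 69 and 82, and -0.14 to 0.18 with an array left out. Clock had -0.0012 at 2 d and -0.11 at 7 d with the mean over its probe sets, and -0.024 to 0.16 at 7 d with an array left out. With an array left out Nr1d2 ran from -0.22 to 0.20 at 2 d and Per1 from -0.65 to 0.15 at 7 d. The r of Bmal1 with Clock was -0.39 without the 2 extreme arrays, -0.017 after median centring and -0.012 after quantile normalization, and that with Bhlhe40 was 0.33 without the 2 extreme arrays. The causes were not tested. All-gene counts at 2 d ran from 2 to 515, at 7 d from 175 to 1463, between days from 192 to 556 in IR and from 1 to 83 in sham rats, for the difference of IR effects from 0 to 6, and for the F test from 1133 to 2004.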

Other observations

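Glucocorticoids and immediate early signals are known to act on Per1 as well as the clock does, so genes of both kinds were counted beside the members. Of 15 glucocorticoid-responsive genes tested, 1 rose at 2 d, Sgk1, a kinase that regulates ion transport. It read 3361, 2352 and 2671 in 2 d IR hearts, against 1440, 1156 and 1438 in 2 d sham hearts (log2 change 0.95, SE 0.18, limma adjusted p = 0.0185), against 2.47% of all probe sets called, and it did not pass without IR rat 69 (0.82, adjusted p = 0.119). At 7 d 1 fell, Klf9, a zinc finger transcription factor (-0.52, SE 0.14, adjusted p = 0.0265), against 5.85% of all probe sets called lower, and it did not pass without sham rat 82 (-0.52, adjusted p = 0.0852). Between days in IR rats 1 fell, the metallothionein Mt2A, with 11145, 7556 and 7582 in 7 d IR hearts, against 23932, 24355 and 17863 in 2 d IR hearts (-1.32, SE 0.24, adjusted p = 0.00659), against 0.997% of all probe sets called lower. The median change of this list was -0.02 at 7 d and 0.13 at 2 d. Fkbp5 and Tsc22d3, 2 of its members that the output list also holds, did not pass on either day. Of 12 immediate early genes tested, 0 were called in limma in any of the 5 comparisons, with a median change of -0.04 at 7 d and 0.41 at 2 d, and 5 had an unadjusted p under 0.05 at 2 d, against 21.5% of all probe sets. The list had 19 genes on the array, and Fos and Atf3 were among those too dim to test. Atf3 read 830, 397 and 566 in 2 d IR hearts, against 286, 167 and 61 in 2 d sham hearts. For Fos, 1 probe set read 362, 279 and 383 in 2 d IR, against 83, 52 and 67 in 2 d sham hearts. Its other probe set read 172, 68 and 106, against 345, 239 and 188.

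Markers of other tissues were few and mostly did not pass at 7 d. Of 3 atrial markers 1 fell (Myl7, -1.75), with sums of 2328 to 7147 in 7 d IR hearts, against 5020 to 17734 in 7 d sham hearts. Of 4 genes listed for skeletal muscle, only Ckm and Acta1 were tested, and Ckm fell (-0.60). The list summed to 54085 to 73480 in 7 d IR hearts, against 71700 to 86414 in 7 d sham hearts. With signals this high in every ventricle, the list cannot mark another tissue here. Of 4 smooth muscle markers 1 rose (Acta2, 0.91). For endothelium, red blood cells and lung 0 of 2, 0 of 2 and 0 of 1 markers tested were called. The lung list summed to 729, 744 and 4309 in the 7 d IR hearts, so that 1 array stood high, against 816 to 942 in 7 d sham hearts.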
